A study of Mus musculus with 2 samples.

Results

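The nuclear-encoded subunits of the mitochondrial respiratory chain and ATP synthase were described in 2 libraries of mouse cerebral cortex. Members were chosen by symbol alone, from genes with a protein-coding transcript whose names begin with Nduf followed by a, b, c, s or v and a number, are Sdha to Sdhd, or begin with Uqcr, Cox4 to Cox8, or Atp5. This gave 85 gene identifiers with 84 symbols, of 55536 annotated genes, because Atp5o names a pair of identifiers. Complex I had 35 members, complex II 4, complex III 8, complex IV 20 (Ndufa4 and Ndufa4l2 counted here, since NDUFA4 is a complex IV protein) and complex V 18.

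The tissue was left cerebral cortex, taken from 2 adult female B6CASTF1/J mice (an F1 hybrid of C57BL/6J and CAST/EiJ) aged 8 to 10 months, and total RNA was sequenced after ribosomal RNA reduction. All libraries carried the same strain, sex, tissue and age range, used 300 ng of RNA each with ERCC spike-ins (synthetic transcripts), and had no treatment or control group. Replicate 1 was animal 1 and replicate 2 was animal 5. The animals have separate numbers in the labels but a common donor entry, and the spread between them may be partly technical. With 1 group of 2 animals no test between conditions exists, and all values below are descriptions.

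The respiratory chain passes electrons from NADH (complex I) and succinate (complex II) through complex III and cytochrome c to oxygen at complex IV, and the proton gradient built on the way drives complex V, which makes ATP. Most subunits are encoded in the nucleus and imported, while a small core is encoded in mitochondrial DNA. Neurons rely on this pathway for the energy of ion pumping and synaptic transmission, and several complex IV subunits have a widely expressed form and a form known from heart and skeletal muscle.

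The cortex label was checked with the neuronal and glial markers Slc17a7, Gad1, Slc1a2 and Mbp, whose mean levels ran from 247 to 917 TPM (a level per transcript length, scaled to a fixed total in each library). Both markers given for the set were present, Atp5b at 856 and 873 TPM and Cox4i1 at 559 and 531 TPM in replicates 1 and 2. Total estimated counts were 28327434 and 30234441. In bulk tissue, fewer cells of a type and less RNA per cell cannot be told apart.

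Sequences upstream of the members are shown because nuclear respiratory genes are textbook targets of the factor NRF1, whose GC-rich site of 10 bases is called the NRF1 site here. Of the members, 68 matched a RefSeq promoter entry (GRCm38.p6), with 73 windows of 250 bases before the start given in that entry. The 6 windows below are those of the highest member of complexes I, II, IV and V that holds the site (no complex III window did), then Atp5b, the highest member of all, and Cox8b, a muscle form near the bottom. Capitals mark the NRF1 site and, in Atp5h, also the ETS-family letters CCGGAAGT on the opposite strand. Ndufa5, an accessory subunit of complex I, is shown at chr6:24527691-24527940 (minus strand). That window lies inside the bounds of the gene in the GENCODE annotation, chr6:24518666-24528013. The Sdha, Cox6a1, Atp5h and Atp5b windows run partly into their genes by the same annotation. Sdha, the flavoprotein of complex II, is at chr13:74350241-74350490 (minus strand). It holds 3 copies of the site, the last of them inside the annotated gene. Cox6a1, the widely expressed form of a complex IV subunit, is at chr5:115348959-115349208 (minus strand). Atp5h, in the peripheral stalk of complex V, is at chr11:115419920-115420169 (minus strand), with its ETS letters inside the annotated gene. Atp5b, the catalytic beta subunit, is at chr10:128083057-128083306 (plus strand). Cox8b is at chr7:140900447-140900696 (minus strand).
Ndufa5: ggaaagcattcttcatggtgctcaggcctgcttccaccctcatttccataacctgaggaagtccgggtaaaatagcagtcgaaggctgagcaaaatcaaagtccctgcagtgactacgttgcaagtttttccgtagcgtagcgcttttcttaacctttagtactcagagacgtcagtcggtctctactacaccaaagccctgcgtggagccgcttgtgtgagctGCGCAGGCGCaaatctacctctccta
Sdha: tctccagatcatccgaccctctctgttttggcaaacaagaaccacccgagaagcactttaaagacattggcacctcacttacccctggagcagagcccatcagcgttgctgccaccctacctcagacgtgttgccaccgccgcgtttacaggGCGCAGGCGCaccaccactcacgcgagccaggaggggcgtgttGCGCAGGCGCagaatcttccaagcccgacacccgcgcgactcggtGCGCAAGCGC
Cox6a1: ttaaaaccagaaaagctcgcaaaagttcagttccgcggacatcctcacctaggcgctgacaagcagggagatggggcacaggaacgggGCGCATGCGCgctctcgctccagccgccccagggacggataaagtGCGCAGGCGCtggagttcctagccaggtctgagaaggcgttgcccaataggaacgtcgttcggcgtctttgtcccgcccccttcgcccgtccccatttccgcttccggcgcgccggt
Atp5h: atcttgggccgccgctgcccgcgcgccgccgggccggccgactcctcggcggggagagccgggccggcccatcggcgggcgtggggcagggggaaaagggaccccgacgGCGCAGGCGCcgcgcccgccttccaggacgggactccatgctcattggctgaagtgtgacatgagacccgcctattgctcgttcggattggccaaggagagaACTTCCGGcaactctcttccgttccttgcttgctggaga
Atp5b: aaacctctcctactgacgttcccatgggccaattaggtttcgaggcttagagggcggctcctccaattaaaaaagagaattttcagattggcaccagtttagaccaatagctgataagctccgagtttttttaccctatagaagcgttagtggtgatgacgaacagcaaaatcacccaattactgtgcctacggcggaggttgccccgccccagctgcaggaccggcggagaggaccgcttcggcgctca
Cox8b: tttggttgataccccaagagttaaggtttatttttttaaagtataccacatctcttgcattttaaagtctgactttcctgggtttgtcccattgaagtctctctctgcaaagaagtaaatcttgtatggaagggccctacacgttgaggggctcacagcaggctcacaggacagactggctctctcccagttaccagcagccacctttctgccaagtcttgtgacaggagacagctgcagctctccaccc

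Over the members at 20 TPM or more, 13 of 67 windows (19.4%) held the NRF1 site on either strand, against 8.89% of the 6152 windows of protein-coding genes at 20 TPM or more and 3.74% of all 32851 windows. These windows belonged to Ndufa5 (both of its windows, which overlap and hold the same site), Ndufa8, Ndufa11, Ndufb4, Ndufs5, Ndufs6, Sdha, Sdhd, Cox6a1, Atp5c1, Atp5h and Atp5k. The other 6 motifs searched on both strands, none of which contains another, showed no common direction. CCGGAAGT (ETS) was in 4.48% of the member windows and 5.48% of the protein-coding ones, AAGATGGC (YY1) in 1.49% and 1.67%, and GGGCGGG (SP1) in 26.9% and 44.1%. CCAAT was in 40.3% and 33.7%, TATAAA in 8.96% and 5.79%, and TCAAGGTCA (ERR) in 1.49%, which is the Atp5g3 window alone, against 0.228%. A match is a description of letters, and no match says only that these letters were not in the window. Members with no matched RefSeq promoter entry include Atp5a1, Atp5mpl, the second Atp5o identifier, Cox4i1, Cox4i2, Cox6a2, Cox6c, Cox8c, Ndufa2, Ndufa4l2, Ndufb9, Ndufs1, Sdhc, Uqcrb, Uqcrc2 and Uqcrq.

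Shared start regions were also more frequent among the members. A protein-coding gene began within 1000 nt upstream on the opposite strand for 19 of 85 members at any level (22.4%). The share was 6.76% of all 22015 nuclear protein-coding genes and 8.77% of the 5693 at 20 TPM or more. Sdha began 29 nt from Ccdc127, which had 41.7 and 37.0 TPM, and Sdhd began 98 nt from Timm8b, a mitochondrial import factor at 103 and 96.6 TPM. Ndufa7 began 10 nt from the ribosomal protein gene Rps28, at 350 and 369 TPM, above the 103 and 94.0 TPM of Ndufa7. Other partners were nearly silent: Ndufa5, at 127 and 119 TPM, began 131 nt from Asb15, at 0.12 and 0.03 TPM. A shared start region therefore went with partner levels from far below to above that of the member. Members lay on 19 chromosomes, with 8 on chromosome 7 and 3 on X (Cox7b, Ndufa1 and Ndufb11).

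The members were among the abundant nuclear messages of this tissue. Of 85 members, 82 reached 1 TPM in both libraries, 74 had a mean of 20 TPM or more, and 49 (57.6%) exceeded 100 TPM, a level passed by 4.47% of 22015 nuclear protein-coding genes. Their median level was 112 TPM in replicate 1 and 108 TPM in replicate 2, and 29 of them were among the 500 highest nuclear protein-coding genes, with Atp5b at rank 22. Together they took 2.56% and 2.41% of nuclear protein-coding TPM, and 0.566% and 0.544% of all counts. Cytosolic ribosomal proteins (85 genes) had a median of 175 TPM, and proteasome subunits (39 genes) a median of 55.7 TPM.

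Median levels were lower in complexes I and II than in the others. Complex I had a median of 94.9 and 94.0 TPM in replicates 1 and 2, and complex II 94.8 and 99.5 TPM. Complex III had 175 and 160 TPM, complex IV 172 and 163 TPM, and complex V 153 and 143 TPM. Complexes I and II thus did not differ beyond their spread, nor did III and IV, and complex V lay between these pairs. Over the 12 complex IV genes at 20 TPM or more the median was 252 TPM, above complex III, all of whose genes pass that level. In a second table, a separate quantification of the same libraries by transcript, complex IV was the highest with a median of 209 TPM. Summed over its genes in the first table, complex I came to 3605 ± 48.8 TPM, complex IV to 3410 ± 129 TPM and complex V to 3316 ± 79.3 TPM (SD, n = 2). Complex III came to 1218 ± 37.8 TPM and complex II to 424 ± 12.1 TPM. In the second table complex IV had the highest sum at 3849 TPM, above complex I at 3728 TPM and complex V at 3378 TPM.

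**Figure D1:**
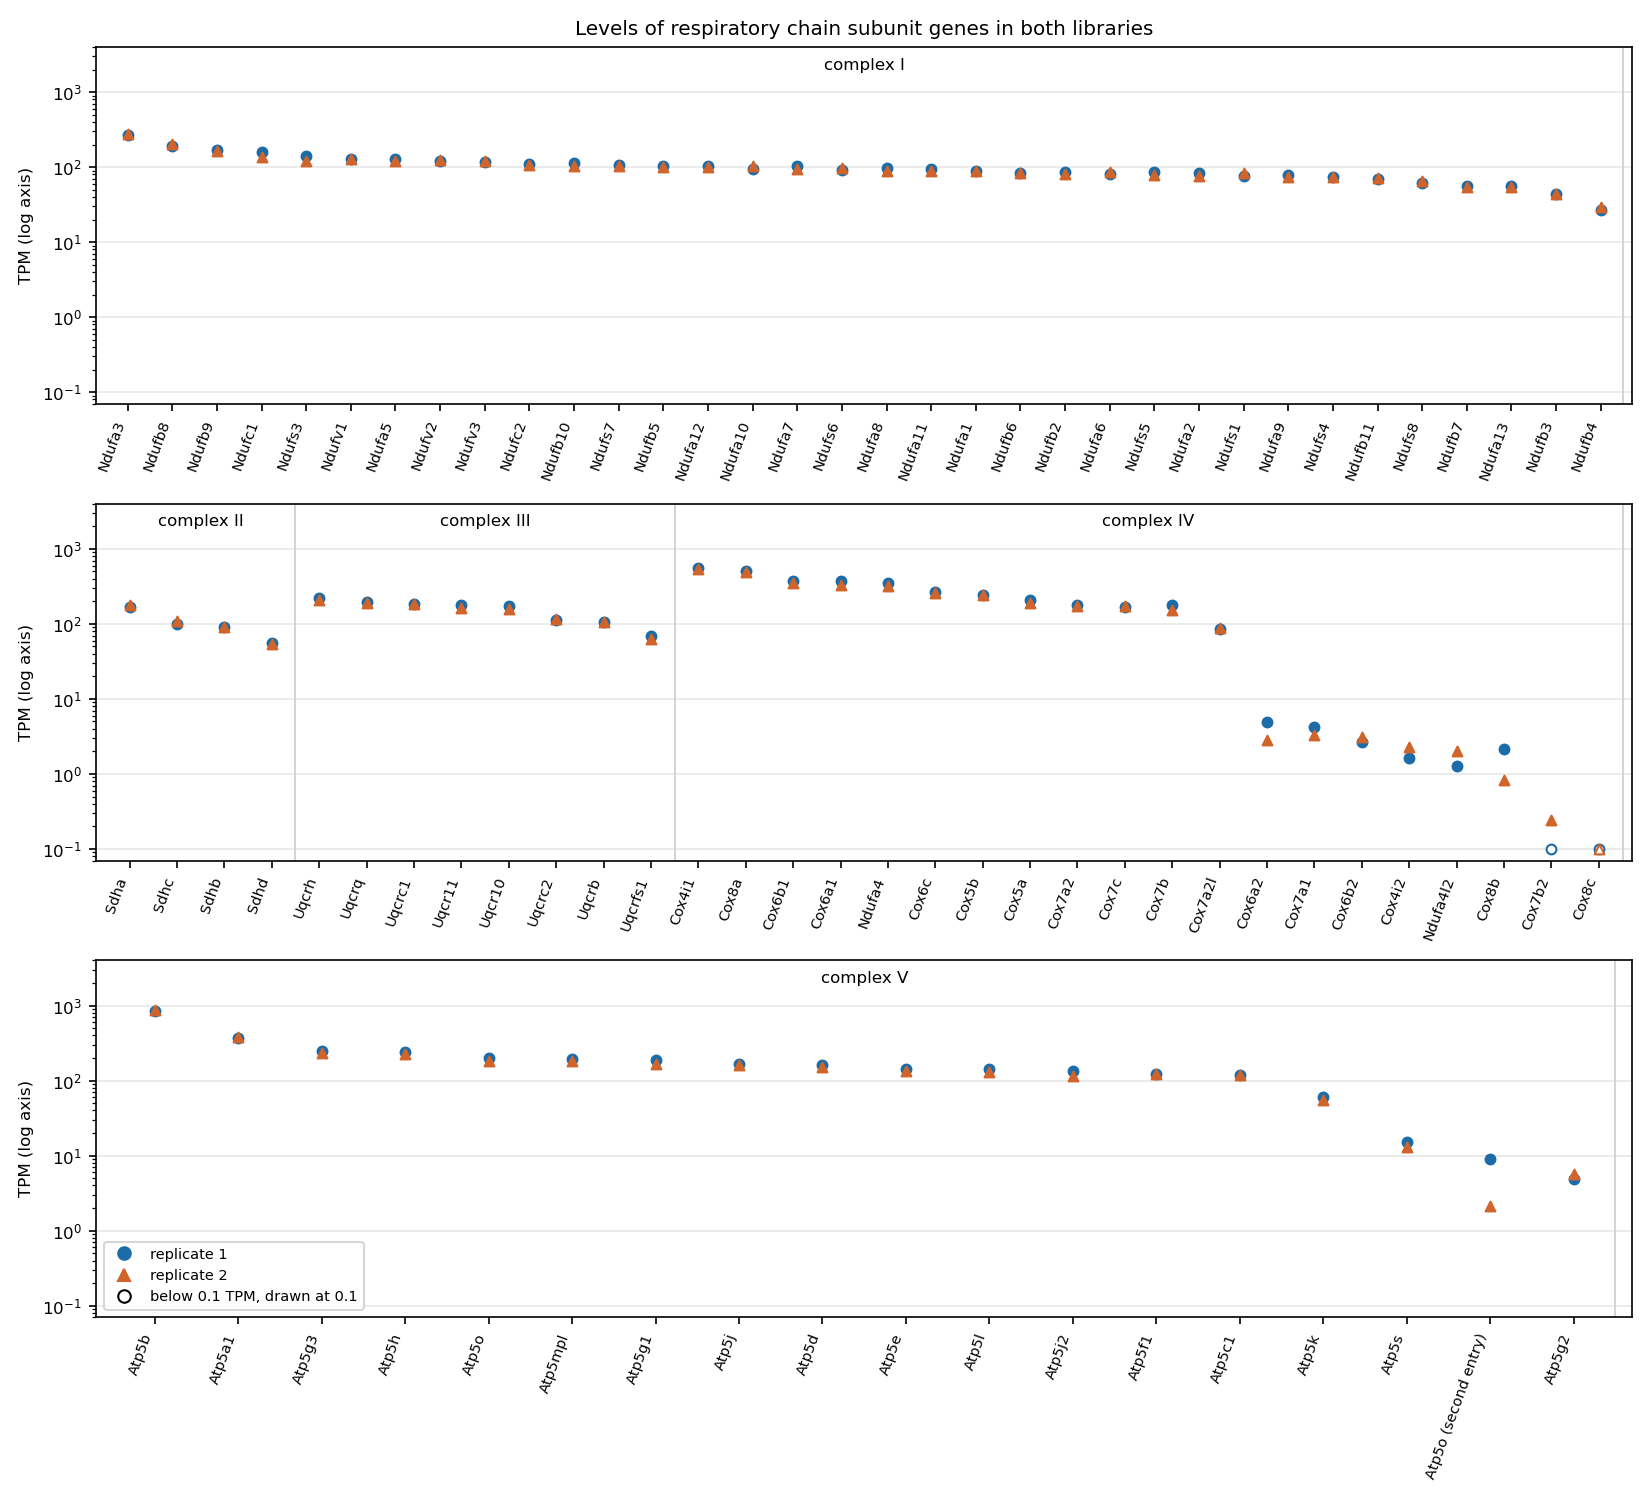
Level of the members in TPM on a log axis, by complex, with circles for replicate 1 and triangles for replicate 2. Most members sit between 50 and 500 TPM with both libraries close together, and 8 complex IV genes lie below 5 TPM.

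In complex I the 7 core subunits, which carry the electron-transfer centres, had a median of 120.9 TPM in replicate 1 and 120.8 TPM in replicate 2, and the 28 accessory subunits medians of 92.7 and 88.4 TPM in replicates 1 and 2. These medians are over all transcripts. The median share in protein-coding transcripts was 74.1% for the core and 98.1% for the accessory subunits. The gap is thus not shown for protein-coding transcripts alone. Among the core, Ndufv1, which binds the flavin that accepts electrons from NADH, had 127 and 129 TPM, and Ndufs8, an iron-sulfur subunit, was the lowest core gene at 61.2 and 64.9 TPM. The libraries lay close together at both genes.

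Accessory subunits spanned a wider range. Ndufa3, an accessory subunit of the membrane arm, was the highest at 269 and 275 TPM, followed by Ndufb8 at 189 and 203 TPM and Ndufb9 at 170 and 166 TPM. At the other end Ndufa13 had 55.8 and 54.8 TPM and Ndufb3 had 43.7 and 43.4 TPM. Ndufb4 was the lowest at 27.0 and 29.4 TPM, so Ndufa3 over Ndufb4 was 9.65. Neither end of that range is secure, because most of the Ndufa3 level lay in a transcript marked for nonsense-mediated decay and most Ndufb4 counts in a pseudogene, as described further on. Within complex I, 31 of 35 genes lay within a factor of 2 of the median.

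Complex II, which also belongs to the tricarboxylic acid cycle, showed an ordered set of levels. Sdha had 171 and 180 TPM, Sdhc, a membrane anchor, 98.5 and 108 TPM, and Sdhb, the iron-sulfur subunit, 91.2 and 91.1 TPM. Sdhd, the other anchor, was the lowest at 55.6 and 53.7 TPM. The 4 genes kept their order in both libraries. Sdha over Sdhb was 1.92 ± 0.0764 and Sdhd over Sdhb 0.599 ± 0.0138 (SD, n = 2), although each stands in the enzyme as a single copy.

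In complex III, Uqcrh, the hinge protein, had 223 and 209 TPM and Uqcrq, a small membrane subunit, had 199 and 192 TPM. The core protein genes Uqcrc1 and Uqcrc2 had 185 and 182 TPM, and 111 and 118 TPM. Uqcrb had 107 and 106 TPM. Uqcrfs1, the Rieske iron-sulfur protein that hands electrons on to cytochrome c1, was the lowest at 69.7 and 63.2 TPM. Uqcrc1 over Uqcrfs1 was 2.77 ± 0.162 (SD, n = 2), and 7 of 8 genes lay within a factor of 2 of the median. The top place of Uqcrh rests on all its transcripts: in protein-coding transcripts alone it had 65.6 TPM, beside 66.4 TPM for Uqcrfs1.

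Complex IV split into 12 genes above 80 TPM and 8 below 5 TPM. The highest were Cox4i1 at 559 and 531 TPM, Cox8a at 513 and 493 TPM, Cox6b1 at 372 and 353 TPM and Cox6a1 at 369 and 332 TPM. Cox4i1 and Cox8a are structural subunits in the membrane, and Cox6b1 lies on the intermembrane side. The low group was made of the alternative forms of the same subunits, and no complex IV gene lay between the groups.

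The widely expressed form held nearly the whole level of 6 families. Cox4i1 held 99.6% of its family's TPM, Cox6a1 98.9%, Cox6b1 99.2%, Cox7b 99.9%, Cox8a 99.7% and Ndufa4 99.5%. The alternative forms were low but mostly above 1 TPM. Cox4i2, a form known to respond to oxygen, had 1.65 and 2.28 TPM, and Ndufa4l2, a hypoxia-linked relative of Ndufa4, had 1.26 and 2.03 TPM. Cox6b2, known from testis, had 2.68 and 3.14 TPM. Cox7b2 had 0 and 2 counts (0 and 0.24 TPM), and Cox8c had 0 counts in both libraries, where 3 counts would have been 0.462 and 0.444 TPM. These floors cover counting error only.

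The muscle forms were present at a trace. Cox6a2 had 4.85 and 2.83 TPM from 51 and 31 counts, a ratio of replicate 2 to replicate 1 of 0.553 (95% counting interval 0.342 to 0.881). Cox7a1 had 4.27 and 3.26 TPM from 24 and 18 counts, a ratio of 0.682 (0.349 to 1.31), and Cox8b had 2.12 and 0.82 TPM from 10 and 4 counts, a ratio of 0.364 (0.0833 to 1.26). All 3 muscle forms were lower in replicate 2, but only the Cox6a2 interval lay below 1. Beside them, the 8 striated muscle markers summed to 40.4 and 26.7 TPM, and none was at 0. All 7 that could be measured for a difference were lower in replicate 2, where 54.4% of all genes were. Their median log2 difference was -1.43, but the list was split. Tnnt2 was at -0.081, Acta1 at -0.32 and Myh7 at -0.48, and the others lay between -1.43 and -2.19. The markers' part in the difference was not tested. Pvalb, the marker of an interneuron class known to use Cox6a2, had 54.1 and 53.6 TPM, and Kcnc1, a potassium channel of the same cells, had 64.6 and 72.4 TPM. Ttr, the choroid plexus marker, had 172 and 55.7 TPM, a log2 difference of -1.70.

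Most mural cell markers went the other way: 6 genes summed to 64.4 and 77.0 TPM, none at 0. All 5 measured were higher in replicate 2, where 45.6% of all genes were, by a median of 0.22. The remaining marker, Kcnj8, had too few counts to be measured, at 48 and 43 (1.10 and 0.98 TPM). Cox4i2 and Ndufa4l2, which are known from pericytes, had ratios of replicate 2 to replicate 1 of 1.29 (0.692 to 2.46) and 1.53 (0.842 to 2.86). Both intervals held 1, so neither difference was detectable at this depth. The part of the mural markers was not tested.

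The Cox7a family, by contrast, was shared. Cox7a2 held 65.8% ± 0.910 of its TPM, Cox7a2l 32.7% ± 1.17 and Cox7a1 1.43% ± 0.258 (SD, n = 2). Cox7a2l, whose protein is known for joining complexes III and IV into supercomplexes, had 84.8 and 88.0 TPM against 177 and 171 TPM for Cox7a2. The pseudogene Gm6969, whose sequence largely matches Cox7a2l, had 63.7 and 56.3 TPM and is not counted in these shares. In the second table Cox7a2 held 72.3%. Cox7a2 led in both libraries and both tables.

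**Figure D2:**
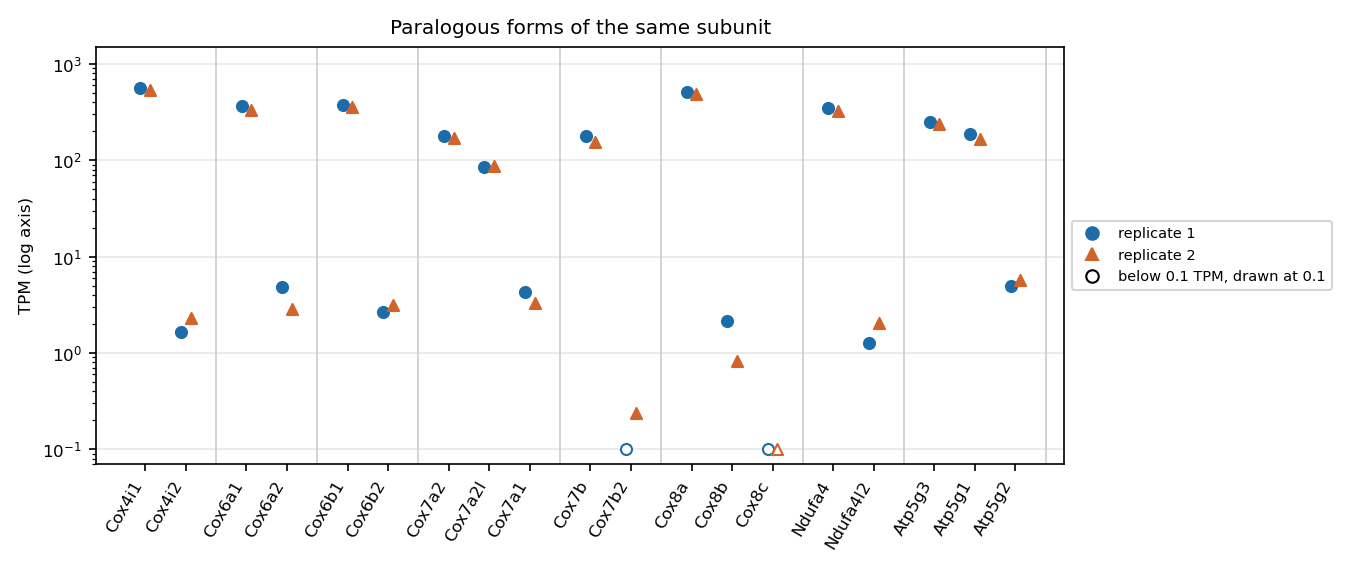
Level in TPM, on a log axis, of each paralogous form, grouped by subunit, with circles for replicate 1 and triangles for replicate 2. In 6 families the leading form holds 98.9% or more of the TPM, while Cox7a2 with Cox7a2l, and Atp5g3 with Atp5g1, share theirs.

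In complex V the catalytic head was the most abundant part. Atp5b, the beta subunit, had 856 and 873 TPM and Atp5a1, the alpha subunit, 367 and 382 TPM, so Atp5b over Atp5a1 was 2.31 ± 0.0344 (SD, n = 2), although the enzyme holds them in equal number. Only 64.3% of the Atp5b level lay in protein-coding transcripts (556 TPM), and counted in those alone Atp5b over Atp5a1 was 1.53 ± 0.0728 (SD, n = 2). Against Atp5c1, the single gamma subunit of the rotor at 120 and 117 TPM, Atp5a1 came to 3.16 ± 0.139 and Atp5b to 7.29 ± 0.211, or 4.69 ± 0.0185 in protein-coding transcripts alone (SD, n = 2). Of the other rotor stalk subunits, Atp5d came to 1.33 ± 0.0405 and Atp5e to 1.17 ± 0.0471 of Atp5c1, the last being 2.23 in the second table. The order of beta over alpha over gamma was the same in both libraries and both tables.

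The c ring, which turns as protons pass, is encoded by 3 genes that give the same mature protein. Atp5g3 had 248 and 236 TPM and Atp5g1 187 and 168 TPM, with shares of 57.0% ± 0.934 and 41.7% ± 1.13 (SD, n = 2). Atp5g2 had 4.90 and 5.73 TPM in the first table and 77.3 and 90.1 TPM in the second, where its share was 18.6%. The low level of Atp5g2 is thus a property of the first table and not of the libraries alone.

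Among the peripheral stalk genes, Atp5h had 243 and 223 TPM. Of the membrane part, Atp5k, which helps ATP synthase form dimers, was low at 60.2 and 55.5 TPM. Atp5s, a coupling factor relative rather than a stoichiometric subunit, had 15.2 and 13.1 TPM. The second identifier named Atp5o had 8.93 and 2.10 TPM from 70 and 17 counts, a ratio of 0.221 (0.122 to 0.379), beside 198 and 183 TPM for the main Atp5o gene. The entries overlap on chromosome 16, at mm10 positions chr16:91684398-91926982 and chr16:91925214-91931687, both on the minus strand, so reads could be assigned to either and the second entry is uncertain.

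Copies of member messages elsewhere in the genome touched several of these levels. By a rule set after the values were seen, a pseudogene was counted as a copy where at least 10% of its own 31-base words occurred in a member's protein-coding transcripts. This gave 73 copies of 34 members, of which 47 had 0 counts in both libraries. A mean of 20 TPM or more was reached by 10 (13.7%), against 1.23% of all 9941 processed pseudogenes. The sets differ in kind, since Gm10175 and Gm10012, both among the 10, are of the transcribed processed type and outside the 9941. Copies were also picked for sequence shared with members, and the part of shared reads in their share was not tested. The copies summed to 1241 ± 86.1 TPM in the first table and to 237 ± 3.73 TPM in the second (SD, n = 2). The counts given to the copies thus depended strongly on the quantification.

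The coding sequences show how close the copies are. Cox7c, a small complex IV subunit, has 189 annotated coding bases in 1 of its transcripts, and the pseudogene Gm12338 (mm10 chr11:75599763-75599954, minus strand) holds all of them with 0 differences. Full-length identity was also found for Atp5l with Gm10221 over 309 bases, Atp5g2 with Gm10175 over 438 bases and Ndufb4 with Ndufb4c over 387 bases. Others differed at a few places, capitalised in 60-base stretches of Ndufs5, a complex I subunit, and its copy BC002163 (2 differences in 318 bases), and of Atp5g1 and its copy Gm10039 (1 difference in 408 bases). All are from the GENCODE M21 transcripts.
Cox7c: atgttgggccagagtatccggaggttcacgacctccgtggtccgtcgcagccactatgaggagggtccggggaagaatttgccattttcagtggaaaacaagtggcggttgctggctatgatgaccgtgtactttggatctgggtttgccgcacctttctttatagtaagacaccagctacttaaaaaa
Ndufs5: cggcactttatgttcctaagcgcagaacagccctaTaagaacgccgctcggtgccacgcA
BC002163: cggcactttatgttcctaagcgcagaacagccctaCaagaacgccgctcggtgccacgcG
Atp5g1: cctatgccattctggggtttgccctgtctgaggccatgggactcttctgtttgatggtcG
Gm10039: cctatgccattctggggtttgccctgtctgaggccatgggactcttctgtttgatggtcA

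In the first table Gm12338 had 589 and 504 TPM, above the 167 and 171 TPM of Cox7c itself, and in the second it had 0 TPM while Cox7c had 323 and 304 TPM. Gm10221 had 198 and 172 TPM beside 143 and 130 TPM for Atp5l, a membrane subunit of ATP synthase, and again 0 TPM in the second table. Ndufb4c had 109 and 120 TPM beside the 27.0 and 29.4 TPM of Ndufb4. Reads from such identical stretches cannot be assigned to a locus from sequence alone, so these levels are uncertain for member and copy alike.

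Summing counts over a member and its copies brought the tables together for the 3 genes in which they differed most. For Atp5g2 the second table gave 16.3 times the first table's counts for the gene alone and 1.04 times with copies. For Ndufb4 the factors were 2.97 and 0.974, and for Cox7c 1.65 and 0.917. Among the other 6 members with a copy at 20 TPM or more, the factor ran from 0.976 to 1.19 for the gene alone and from 0.719 (Atp5l) to 1.10 with copies. In TPM only Atp5g2 of these 3 came together, with factors of 15.7 for the gene alone and 0.941 with copies. For Ndufb4 the TPM factors were 2.53 and 0.548. For Cox7c they were 1.85 and 0.423, so its tables lay further apart with copies. The Cox7c sum was 745 ± 54.0 TPM in the first table and 315 ± 12.9 TPM in the second (SD, n = 2). Among the other 6 members the TPM factor ran from 0.810 to 1.22 for the gene alone. With copies it ran from 0.510 (Atp5l) to 1.23 (Ndufa12).

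**Figure D3:**
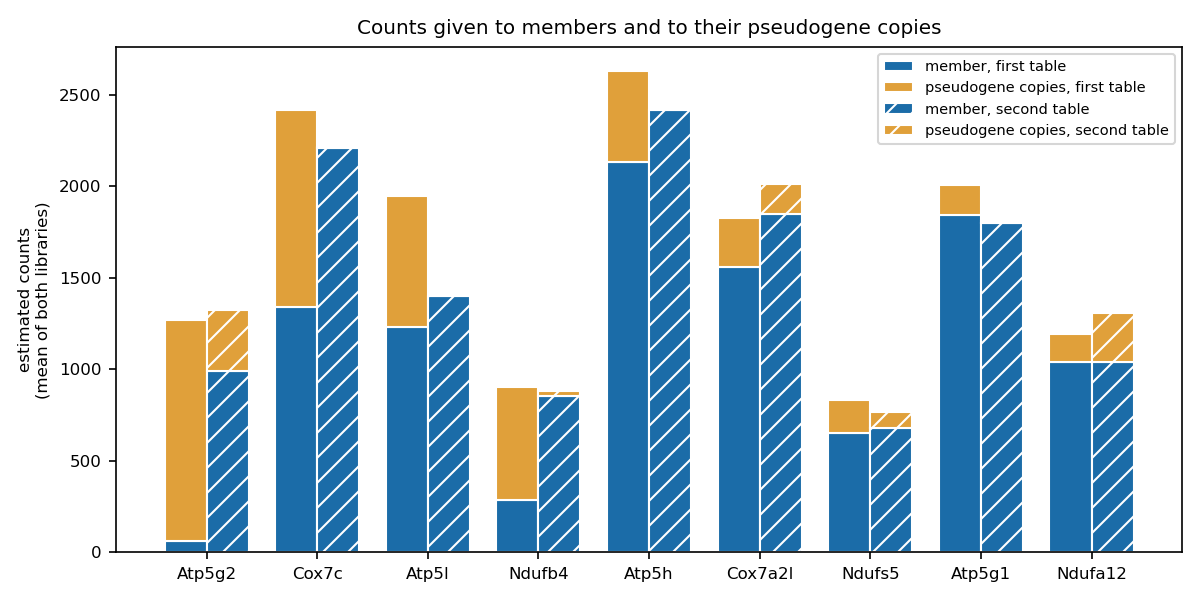
Estimated counts (mean of both libraries) given to each member and to its pseudogene copies, with plain bars for the first table and hatched bars for the second. For Atp5g2, Ndufb4 and Cox7c the member's bar differs strongly between tables, while member and copies together differ by a factor of 1.04, 0.974 and 0.917.

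Apart from these, the tables gave like levels. Of 74 members at 20 TPM or more, 70 lay within 1.5-fold (97.0% of 5693 protein-coding genes did so). The exceptions were Ndufb4 (second over first 2.53), Cox7c (1.85), Atp5e (1.60) and Ndufs3 (1.59), each higher in the second table. Among genes left out for not being protein-coding, Ndufb1-ps had 43.4 and 35.4 TPM, and Ndufb4c was the only such pseudogene above 1 TPM.

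Total RNA also holds unspliced and non-coding transcripts, so the part of each level in protein-coding transcripts was read from the transcript tables. Over the 74 members at 20 TPM or more, with 354 transcripts, protein-coding transcripts held 80.5% of the TPM in the first table and 76.2% in the second. Retained-intron transcripts held 7.86% and 10.3%, processed transcripts without a reading frame 7.93% and 9.07%, and transcripts marked for nonsense-mediated decay 3.76% and 4.48%. The median member had 97.1% in protein-coding transcripts, against 91.2% for the 5693 protein-coding genes at that level, and 95.1% against 88.4% in the second table.

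A minority of members went against this. Fewer than 50% of the TPM was protein-coding for 12 members in the first table and 11 in the second. Ndufa3 had 4.89% and 0.968% in the first and the second table, because its transcript Ndufa3-204, of the nonsense-mediated decay type and 343 nt long, had 256 and 257 TPM in replicates 1 and 2. Atp5j, in the peripheral stalk, had 10.0% and 32.8%, with 142 and 134 TPM in the retained-intron transcript Atp5j-208. Both results leave the highest complex I gene and a stalk gene with little TPM in annotated coding transcripts.

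Ndufs4, a complex I subunit whose loss is a mouse model of Leigh syndrome, had 18.8% and 11.7%, with its largest transcript Ndufs4-204 of the decay type at 45.5 and 46.5 TPM. Cox5b, a complex IV subunit on the matrix side, had 21.5% in the first table. Some shares rested on the table: Cox7b had 32.6% in the first and 1.16% in the second, and Ndufc1 had 29.8% and 0.429%. The same transcript was the highest in both tables for 59 of 74 members. A short transcript that overlaps a coding one shares its reads, so these splits are uncertain.

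**Figure D4:**
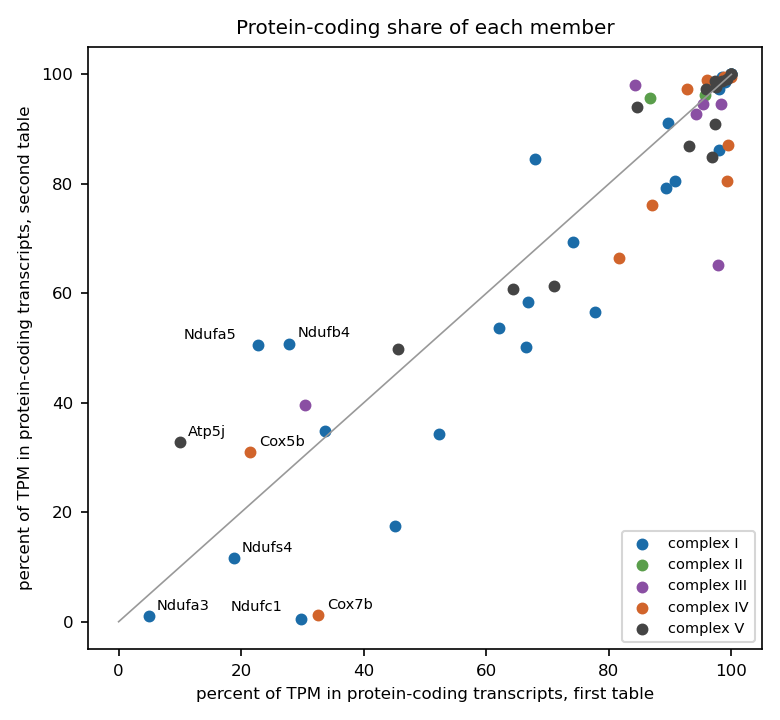
Percent of each member's TPM in protein-coding transcripts, first table on the x axis and second table on the y axis, for the 74 members at 20 TPM or more, with colours for the complexes and a line of equality. Most points lie near 100% on both axes, and Ndufa3 sits near 0 on both at 4.89% and 0.968%.

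Between the animals the members differed little. After TMM scaling, none of the 76 members with a mean of at least 50 counts was past 1.2-fold in either direction, where 14.3% of 14122 genes were higher in replicate 2 and 13.1% lower. Abundant genes as a whole were also steadier than that. Of 2320 nuclear protein-coding genes at 50 TPM or more, members included, 64 were past 1.2-fold higher and 151 lower. The second table had 4 members past it lower (Atp5j2, Atp5k, Cox7b and Ndufs5), where 12.7% of genes were, and none higher, where 13.6% were. At any size, 69 of 76 members were lower in replicate 2, where 54.4% of all genes were, and 7 were higher, where 45.6% were. The members' median log2 difference was -0.11 (a ratio of 0.925), beside -0.022 for all genes. The direction depended on scaling: with spike-in totals all 76 members were higher in replicate 2, with a median of 0.16 beside 0.25 for all genes. With that scaling 9 members were past 1.2-fold higher, where 48.1% of genes were, and none was past it lower, where 3.03% of genes were. Relative to all genes the members' median stood at -0.090, a gap that a change of scaling cannot move since it shifts all genes alike, and at -0.12 in the second table.

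The extremes were small. Ndufc1 had the lowest log2 difference at -0.26, followed by Cox7b at -0.26, Atp5g1 at -0.25 and Atp5j2, a membrane subunit of ATP synthase, at -0.24. The highest were Ndufb4 at 0.26, Sdhc and Ndufa6 at 0.10 each, and Atp5g2 at 0.098, of which Ndufb4 and Atp5g2 are the genes with identical copies. The median counting SE of a member's difference was 0.056. After TMM scaling, all 8 complex III and all 12 measured complex IV members were lower in replicate 2, where 54.4% of all genes were. So were 30 of 35 in complex I, 3 of 4 in complex II and 16 of 17 in complex V. With spike-in totals all 76 members were higher.

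Other abundant messages, most of them short, were shifted in the same direction. Ribosomal protein genes had a median of -0.10, with 68 of 82 lower, and proteasome genes, whose transcripts are longer (median 1302 nt, against 651 nt for the members), -0.089, with 28 of 35 lower. The 248 other nuclear protein-coding genes at 50 TPM or more with transcripts under 1000 nt had a median of -0.10, with 204 lower. Within the members the difference went with transcript length: the median was -0.17 in 32 members under 600 nt, -0.12 in 26 from 600 to 1000 nt, -0.083 in 15 from 1000 to 2000 nt and -0.022 in the 3 longer ones. Other nuclear protein-coding genes had medians of -0.13, -0.059, -0.016 and -0.025 in the same length classes. Spearman's rho between length and difference was 0.40 over 76 members, which share both libraries, and -0.020 over 12738 other genes. The part of transcript length in the members' shift was not tested.

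**Figure D5:**
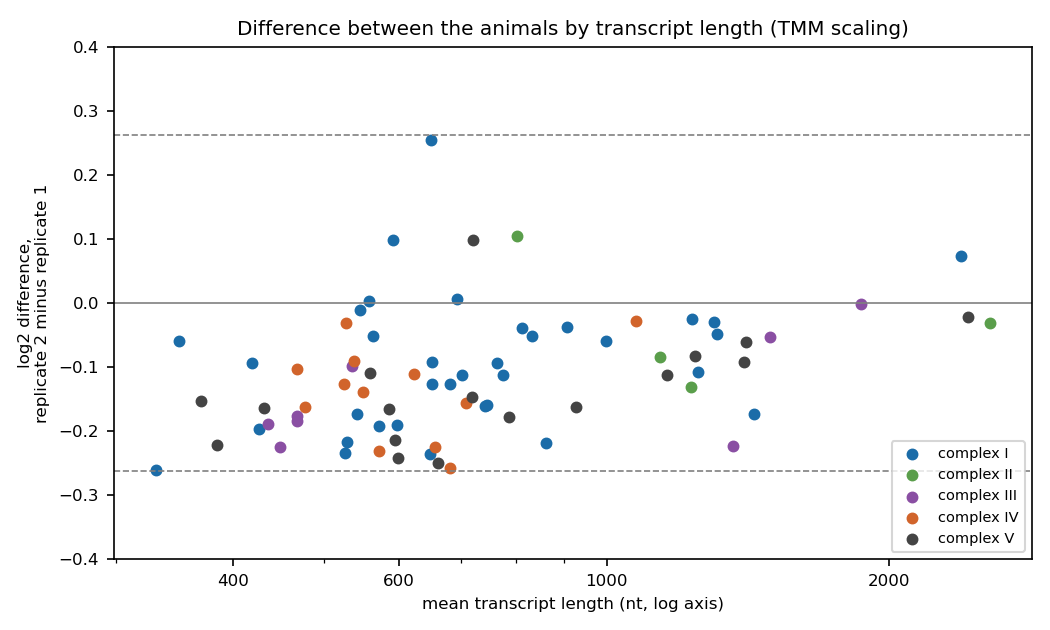
Log2 difference of each of 76 members, replicate 2 minus replicate 1 after TMM scaling, against mean transcript length on a log axis, coloured by complex, with dashed lines at 1.2-fold. Most members lie below 0, and the members under 600 nt have a median of -0.17.

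The mitochondrially encoded partners stood far higher. The median of the mitochondrial messages over that of the nuclear members of the same complex was 11.9 and 14.1 for complex I in replicates 1 and 2, 19.5 and 23.4 for complex III, 34.0 and 40.6 for complex IV, and 13.2 ± 2.46 (SD, n = 2) for complex V. In the second table the ratios were 15.7 for complex I, 19.3 for III, 18.5 for IV and 13.5 for V, so that complex IV led in the first table alone. The complex V ratios rest on 2 messages for which the tables differed, so their likeness is not agreement. Means in the first and the second table were 2730 and 4226 TPM for mt-Atp6, and 1172 and 1.36 TPM for mt-Atp8. Complex II has no mitochondrially encoded subunit. Within complex IV, mt-Co2 was low at 212 and 172 TPM, whereas mt-Co1 had 7128 and 7716 TPM. In the second table mt-Co2 averaged 770 TPM, above Cox4i1 at 590 TPM, which it lay below in the first. Unlike most nuclear members after TMM scaling, 9 of 13 mitochondrial messages were higher in replicate 2, where 45.6% of all genes were. Their median log2 difference was 0.061.

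Of the genes that serve the chain, assembly factors and regulators were lower than the subunits. The 4 annotated genes of the chain whose symbols fall outside the rule ranged from 90.5 to 421 TPM, with a median of 153 TPM. They are Usmg5, Ndufab1, Cyc1 and Atpif1, the last encoding an inhibitor of ATP synthase rather than a subunit. Cycs, which encodes the cytochrome c that carries electrons to complex IV, had 21.2 and 22.4 TPM, with an average of 58.1 TPM in the second table, and the testis form Cyct had 0 in both. All 52 assembly factors were detected, with a median of 14.9 TPM, a highest level of 111 TPM for Uqcc2 (a complex III factor) and a lowest of 2.44 TPM for Nubpl. Of 51 measured, 5 were past 1.2-fold higher and 10 lower in replicate 2, where 14.3% and 13.1% of all genes were. At any size 38 of the 51 were lower, where 54.4% of all genes were.

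The 11 regulators had a median of 11.5 TPM and a highest of 30.3 TPM. Esrra, a nuclear receptor that acts on respiratory genes, had 30.7 and 29.9 TPM, and Ppargc1a, its coactivator, 29.0 and 27.6 TPM. Nrf1, the factor whose site was searched above, had 11.8 and 9.78 TPM. None was past 1.2-fold higher, and 2 were past it lower, Gabpb1 at -0.55 and Gabpa at -0.42, which encode parts of an ETS-family factor. This is near the share of all genes past it lower (13.1%). The 13 tricarboxylic acid cycle enzymes had a median of 88.0 TPM, and none was past 1.2-fold either way.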

How the data were processed

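Total RNA sequencing of 2 libraries was analysed. Build mm10 and GENCODE M21 come from the deposited readme text; the sources used here name no aligner, quantification tool, version or use of strand. The first table (gene and transcript) holds expected counts, estimated by the authors, shared out over features and not normalized. The second, per-transcript table holds estimated counts from a separate quantification, also not normalized. Whether its counts were made in the same way is not stated. TPM values were scaled by the authors to a fixed total over all features. The percent of a gene's TPM per transcript is deposited per the file headers. Deposited credibility bounds are scores whose level is not stated and were not used for any result.

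Levels are mean ± SD of TPM over both animals, and second-table transcripts were summed by gene. Expected counts were rounded for edgeR 4.0.16 in R 4.3.3 (TMM factors, log2 CPM with a prior count of 1); DESeq2 1.42.0 size factors, totals and spike-in totals were alternatives. Differences (replicate 2 minus replicate 1) were kept where the mean count was 50 or more, described past 1.2-fold and without a test. The scaling step was tested on simulated data. Count ratios carry exact 95% binomial intervals, and a floor is 3 counts; PCR duplicates are not separable, so both cover counting error only. The libraries' counts over 76 members differed by more than sampling noise (chi-square over degrees of freedom 4.76), so they were not treated as 1 library deposited again. That they come from separate animals rests on the labels' animal numbers alone.

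Members and lists were chosen with earlier results of these data known. Named genes are the highest 4 and lowest 3 members per complex, all isoform families, the 4 largest differences each way, the 4 lowest coding percents and the 4 largest ratios between tables, and the ends of each other list. Other names, the 20 TPM level, the copy rule, motifs, windows, length classes and divergent starts were chosen after the values were seen. Hybrid reads were counted on the reference genome, and alleles were not analysed here. A few items are not reported here, 1 of them left out of the plot of levels by complex.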

Additional observations from a re-analysis of the deposited data

How the results depend on the processing

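No paired analysis was possible because there is 1 group, with 1 library per animal. Outliers could not be looked for in a group of 2. With the second table the median TPM became 91.5 for complex I, 209 for IV, 157 for V, 1464 for mitochondrial messages, 199 for ribosomal proteins, 50.9 for the proteasome and 82.9 for the tricarboxylic acid cycle, and with annotated in place of effective lengths 103 for complex II, 154 for III, 1674 for mitochondrial messages, 60.9 for the proteasome, 15.9 for assembly factors and 98.0 for the tricarboxylic acid cycle. Leaving out a replicate gave 94.0 to 94.9 for complex I, 172.5 to 174.5 for ribosomal proteins, 54.5 to 55.8 for the proteasome and 81.8 to 87.5 for the tricarboxylic acid cycle. The Cox7a2 share became 72.3% (second table) and 64.2% (annotated length), and that of Atp5g3 49.5% (second table). Members past 1.2-fold higher numbered 1 with totals (17.1% of all genes were), 9 with spike-in totals (48.1%) and 4 with no count filter (15.2%), and those lower 4 in the second table (12.7%) and 4 with no filter (11%), the last all under 50 counts. The median difference changed sign to 0.16 with spike-in totals. The median coding percent over members with a value was 97.9, and became 97.3 in the second table, 96.9 by counts and 97.4 to 98.1 on leaving out a replicate. The cause was not tested. Members summed with their copies, an alternative chosen after seeing the data, moved in all 9 cases.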
